A study of Rattus norvegicus with 50 samples.

Results

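Genes of cortical inhibition, 5 in number, were followed through postnatal development of the rat medial prefrontal cortex. They were chosen by identifier, as 5 of the 29516 rows that both deposited expression tables hold: Gad1 (ENSRNOG00000000007), Gad2 (ENSRNOG00000018200), Pvalb (ENSRNOG00000006471), Sst (ENSRNOG00000001837) and Vip (ENSRNOG00000018808). The symbols come from the definition of this gene set. The tables list identifiers only, and the RefSeq gene table used here lists 0 Ensembl rat identifiers, so the pairing was not checked against a source. Tissue came from Wistar rats at postnatal days 8, 14, 21, 35 and 70. At each age 5 libraries were made from wild-type rats and 5 from rats with a knock-out of the serotonin transporter (SERT), 50 libraries in all. The labels name no allele, sex or rat for a library, and p-values here reflect variation among libraries that may be technical. Values are FPKM (fragments scaled to transcript length and to the reads mapped) of RNA depleted of ribosomal RNA, each library divided by 1 scaling factor (0.829 to 1.205). Libraries ran from 0.397 to 1.419 times the median read depth, and their median correlation with their own group from 0.925 to 0.977, with 3 under 0.93 (knockout 30-5 of day 8, knockout 17-1 of day 21 and wild-type 20-2 of day 14). FPKM is set per transcript length, and levels of different genes are placed side by side on that basis. The annotation that gave the lengths is not known, so the order of levels between genes is less sure than changes within a gene.

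GABA, the main inhibitory transmitter of the cortex, is made from glutamate by glutamate decarboxylase. Gad1 encodes the form found throughout the cell, and Gad2 the form concentrated at nerve terminals and synaptic vesicles. Pvalb encodes parvalbumin, a calcium-binding protein of fast-spiking basket and chandelier cells that contact the soma and axon initial segment of pyramidal neurons. Sst encodes somatostatin, a peptide of interneurons that contact dendrites. Vip encodes vasoactive intestinal peptide, made by interneurons that mostly contact other interneurons. In cortex parvalbumin is known to appear late, after birth, while somatostatin is already made before birth. In bulk tissue fewer cells of a type and less RNA per cell cannot be told apart.

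The stretch of 120 bases before the annotated start of each gene is shown because the genes differ in base composition around the start. That composition was measured over the longer window described below. The sequences are from RefSeq (GRCr8), and all 5 symbols matched. They lie at chr3:75777332-75777451 (plus strand), chr17:89671598-89671717 (plus), chr7:111666290-111666409 (minus), chr11:90461426-90461545 (plus) and chr1:44470360-44470479 (plus). Capitals mark matches on either strand to 3 motifs. The first, CCGCCC, is the binding sequence of Sp-family factors. The second, TGACG, is the core of the cyclic AMP response element. The last, TATAAA, is the usual TATA box.
Gad1: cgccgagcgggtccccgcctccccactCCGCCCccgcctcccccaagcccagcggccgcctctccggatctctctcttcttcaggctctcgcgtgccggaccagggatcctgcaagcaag
Gad2: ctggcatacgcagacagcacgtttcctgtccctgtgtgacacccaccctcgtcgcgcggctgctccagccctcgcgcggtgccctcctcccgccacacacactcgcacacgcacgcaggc
Pvalb: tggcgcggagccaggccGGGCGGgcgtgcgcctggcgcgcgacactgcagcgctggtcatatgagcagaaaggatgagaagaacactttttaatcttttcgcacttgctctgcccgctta
Sst: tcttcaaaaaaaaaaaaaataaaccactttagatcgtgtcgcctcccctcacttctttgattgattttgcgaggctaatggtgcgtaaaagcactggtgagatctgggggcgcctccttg
Vip: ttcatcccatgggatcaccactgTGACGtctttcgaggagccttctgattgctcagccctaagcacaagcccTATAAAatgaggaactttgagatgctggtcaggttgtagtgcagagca

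Over the whole tabulated window of 300 bases (250 before the start and 50 after), Gad1 was 67.7% G and C, Gad2 63.7%, Pvalb 60.7%, Sst 45.7% and Vip 44.0%. Of 33469 RefSeq rat promoters, 11.6% were at least as rich in G and C as Gad1 and 72.4% at least as rich as Sst. CCGCCC was in the windows of Gad1 and Pvalb and in 33.1% of all windows. TGACG was in the windows of Pvalb, Sst and Vip and in 21.2% of all. TATAAA was in those of Gad1 and Vip and in 14.2% of all. Counted from the annotated start, the Gad1 match lay at bases -213 to -208 and the nearest Vip match at -48 to -43. Whether transcription in this tissue begins at the annotated starts was not tested, so all positions here hold for the annotation only. The full palindrome TGACGTCA, which overlaps TGACG on both strands, was in 1.83% of all windows and among the 5 genes in that of Sst, at bases 3 to 10 after the annotated start:
Sst site: tccttggcTGACGTCAgagagaga

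In wild-type rats both GABA-synthesis genes rose before day 21, and no later change passed the test. Gad1 stood at 14.1, 13.9, 19.1, 17.5 and 16.1 FPKM in the 5 wild-type libraries of day 8, and at 26.5, 22.8, 21.8, 21.7 and 27.4 at day 14. The libraries of the later age all lay above those of the earlier one. The share of all genes that lay apart between ages in this way is not given here, for Gad1 or the genes below. Between days 8 and 14, 4981 of the 14779 genes tested were called in wild-type rats. In order of age, its means were 16.1 ± 2.23, 24.1 ± 2.74, 34.1 ± 4.08, 35.3 ± 4.85 and 31.9 ± 2.64 FPKM (SD, n = 5). The log2 change of FPKM + 0.5 was 0.57 ± 0.13 (SE) from day 8 to 14 (limma adjusted p = 0.000858) and 0.50 ± 0.13 from day 14 to 21 (limma adjusted p = 0.00608). The second of these calls was lost with the values as deposited (0.0591) and with libraries averaged by first title number (0.0748). For Gad2 the first interval was the only consecutive one to pass. Its wild-type libraries held 9.72, 11.8, 11.5, 10.7 and 14.0 FPKM at day 8 and 26.9, 25.6, 31.5, 29.5 and 34.2 at day 14. The lowest value at day 14 was thus well above the highest at day 8. The mean rose from 11.6 ± 1.59 to 29.5 ± 3.48 FPKM, a log2 change of 1.32 ± 0.19 (SE; limma adjusted p = 2.78e-07). At days 21, 35 and 70 Gad2 stood at 33.7 ± 4.57, 30.7 ± 3.85 and 30.0 ± 2.83 FPKM.

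**Figure D1:**
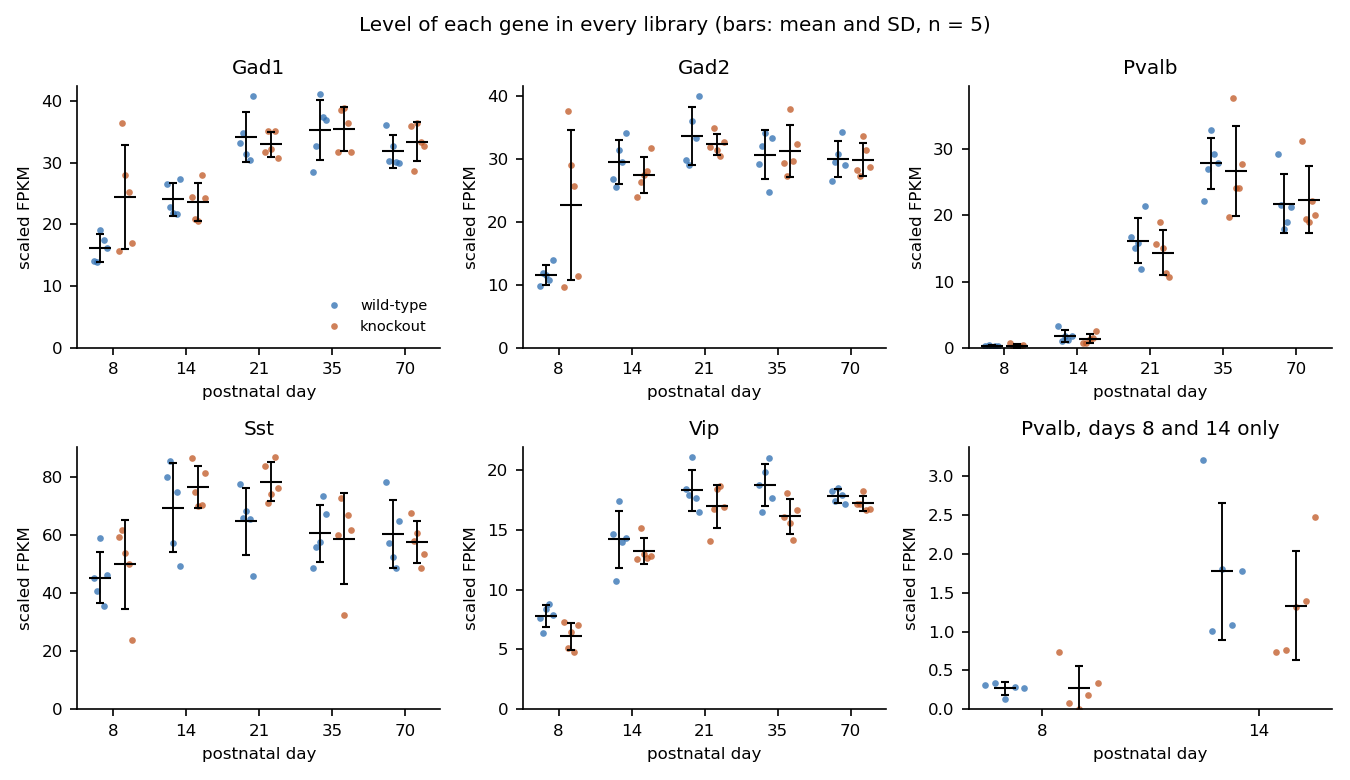
Scaled FPKM (y axis) of each gene by postnatal day (x axis), 1 point per library, wild-type in blue and knockout in orange, with the mean and SD of 5 libraries. The last panel repeats Pvalb at days 8 and 14 on its own axis. Gad1 and Gad2 reach up to 36.4 and 37.6 FPKM in knockout libraries of day 8, where the highest wild-type values are 19.1 and 14.0.

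Pvalb, the marker of fast-spiking cells, had by far the largest rise of the 5 genes from day 8 to 70. Its log2 change was 4.85 in wild-type rats, beside 1.35 for Gad2, the next largest. In wild-type rats it was near the floor at day 8, at 0.305, 0.337, 0.133, 0.28 and 0.274 FPKM, and at day 14 it stood at 3.21, 1.01, 1.81, 1.08 and 1.78. By day 21 the 5 libraries held 16.7, 15.1, 15.8, 11.9 and 21.5 FPKM, with no overlap between these ages. The means were 0.266 ± 0.0786, 1.78 ± 0.886, 16.2 ± 3.49, 27.9 ± 3.89 and 21.8 ± 4.48 FPKM at days 8, 14, 21, 35 and 70 (SD, n = 5 each). At day 14 Pvalb had thus reached 8.16% of its day 70 mean, while Gad2 had reached 98.3%, Vip 79.5% and Gad1 75.5% of theirs. FPKM + 0.5 rose 2.83-fold, 7.61-fold and 1.72-fold in the first 3 intervals, with limma adjusted p of 8.02e-07, 2.12e-13 and 0.0394. The rise from day 21 to 35 was the least firm, and its call was lost in 14 of 61 alternative settings (limma adjusted p 0.00303 to 0.296). Many of the 61 left out 1 library of a group outside this comparison. Among the 11 settings that were not single-library omissions, the call was lost in 6. The other 8 losses each came from leaving out 1 library of day 21 or 35. These libraries were 14-1, 14-3, 15-2 and 15-3 of day 21 and 10-4, 11-1, 11-4 and 8-4 of day 35. The limma adjusted p without them was up to 0.126 (without 15-3). At day 8 Pvalb rests on very few reads. Multiplied by relative read depth, its value was 0.328 to 0.329 in 3 of 5 wild-type libraries, which were picked as the closest together (within 0.437%). It was 0.318 in 25-2 and 0.159 in 26-1, and whether such values are steps of whole reads was not tested. One knockout library (29-5) is listed at 0.

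Knockout rats followed the same order of ages for Pvalb. In order of age its means were 0.268 ± 0.291, 1.33 ± 0.706, 14.3 ± 3.42, 26.7 ± 6.76 and 22.4 ± 5.11 FPKM (SD, n = 5). The rise from day 14 to 21 was the steepest here too, with a log2 change of 3.06 ± 0.23 (SE; limma adjusted p = 1.13e-13). That from day 21 to 35 was 0.88 ± 0.23 (limma adjusted p = 0.0153), and it was lost without library 18-1 of day 21 (0.0652) or 7-2 of day 35 (0.0626), with a pseudocount of 0.1 (0.120) and with libraries averaged by first title number (0.157). In both genotypes the day 35 mean lay above the day 70 mean, but the log2 changes from day 35 to 70, -0.36 in wild-type and -0.24 in knockout rats, did not pass (limma adjusted p = 0.858 and 0.699).

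Sst had the highest mean of the 5 genes at every age in both genotypes, and its change from day 8 to 70 was the smallest. Wild-type libraries ran from 35.4 to 58.8 FPKM at day 8 (median 45.1) and from 49.3 to 85.5 at day 14 (median 74.7). The ranges overlapped. The mean went from 45.2 ± 8.68 to 69.3 ± 15.4 FPKM (SD, n = 5), a log2 change of 0.60 ± 0.19 (SE; limma adjusted p = 0.013), and stood at 60.3 ± 11.8 at day 70. The call for day 8 to 14 was lost with the values as deposited (limma adjusted p = 0.0643) and with libraries averaged by first title number (0.0865). Over the whole span from day 8 to 70 the log2 change of 0.41 did not pass in wild-type rats (limma adjusted p = 0.0683, from 0.00479 to 0.379 over 61 settings), and neither did that of 0.27 in knockout rats (0.229). The wild-type change passed in 7 of these settings, among them those without wild-type library 26-1 of day 8 (0.0306) or 3-3 of day 70 (0.0437), and those without knockout library 30-5 of day 8 (0.0298) or 7-3 of day 35 (0.0427), which enter through the shared spread. In knockout rats Sst went from 49.8 ± 15.2 to 76.4 ± 7.17 FPKM between days 8 and 14 (log2 change 0.68 ± 0.19 SE, limma adjusted p = 0.00429). It then stood at 78.4 ± 6.68 at day 21 and 58.7 ± 15.5 at day 35, a log2 change of -0.46 that did not pass (limma adjusted p = 0.177).

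Vip rose early and had the smallest coefficient of variation of the 5 genes at day 70 (3.14% in wild-type and 3.72% in knockout rats). Its wild-type ranges, in order of age, were 6.39 to 8.81, 10.7 to 17.4, 16.5 to 21.1, 16.5 to 21.0 and 17.2 to 18.5 FPKM. Day 8 stood apart from all later ages, and days 21, 35 and 70 overlapped. Vip rose by 0.82 ± 0.10 log2 units (SE) between days 8 and 14 and by 0.37 ± 0.10 between days 14 and 21, with limma adjusted p of 7.19e-09 and 0.00514. In knockout rats the same intervals gave 1.07 ± 0.10 and 0.34 ± 0.10 (limma adjusted p = 5.72e-12 and 0.0092). The rise of the second interval was lost with the values as deposited (0.0966 in wild-type and 0.0668 in knockout rats), and in wild-type rats when those groups alone were fitted (0.0688).

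**Figure D2:**
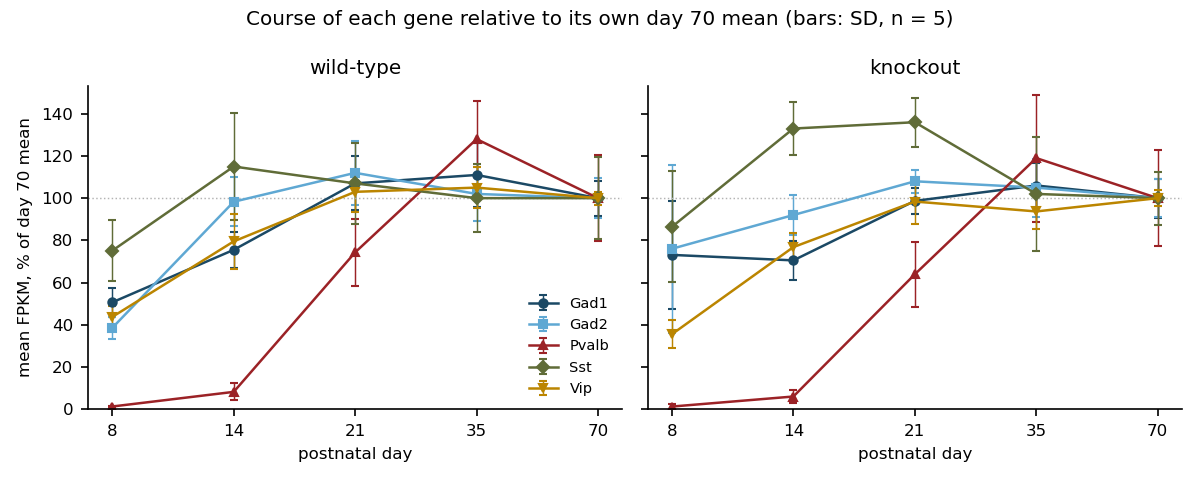
Mean FPKM of each gene as a percentage of its own day 70 mean (y axis) by postnatal day (x axis, ages evenly spaced), with SD over 5 libraries, wild-type left and knockout right. At day 14 wild-type Pvalb is at 8.16% of its day 70 mean and wild-type Gad2 at 98.3%.

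Counted together in wild-type rats, 5 of the 5 genes rose between days 8 and 14, when 17.4% of the 14779 genes tested rose. Between days 14 and 21 the count was 3 (Gad1, Pvalb and Vip, against 10.3% of all genes). Between days 21 and 35 it was 1 (Pvalb, against 1.84%) and between days 35 and 70 it was 0 (against 0.0947%). In this last interval 0 of the 5 and 1043 of the 14779 genes tested had an unadjusted p under 0.05. From day 8 to 70, 4 of 5 rose (all except Sst), against 27.8% of all genes. No fall passed for any of the 5 in these intervals. Of the 14779 genes tested, 2411, 1495, 299, 36 and 4045 fell, in the same order of intervals. The median log2 change of the 5 from day 8 to 70 was 1.15, and that of all genes was -0.01. In knockout rats 3 rose between days 8 and 14 (Pvalb, Sst and Vip; 18.7% of all genes), 3 between days 14 and 21 (Gad1, Pvalb and Vip; 10.7%), 1 between days 21 and 35 (Pvalb; 1.94%) and 0 between days 35 and 70 (0.142%). Over the whole span 4 of 5 rose (29.1% of all genes). The knockout rises of Gad1 and Gad2 from day 8 to 70, had log2 changes of 0.51 and 0.57, beside 0.97 and 1.35 in wild-type rats. Both lost their call when only these groups were fitted (limma adjusted p = 0.0607 and 0.2). That of Gad2 was also lost without library 28-1 (log2 change 0.31, adjusted p = 0.103) or 30-5 (0.37, 0.0784) of day 8, and with array weights (0.24, 0.18).

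The genotypes differed most at day 8, in the 2 GABA-synthesis genes, though no difference passed the test over all genes. In knockout libraries 28-1, 29-4, 29-5, 30-1 and 30-5, Gad2 stood at 9.67, 37.6, 29.1, 25.7 and 11.4 FPKM. The wild-type range at this age was 9.72 to 14.0. So 3 knockout libraries were 2.22 to 3.25 times the wild-type mean, within the range of knockout libraries at later ages (23.9 to 37.9), and the other 2 were below that mean. Gad1 in the same libraries stood at 15.6, 36.4, 28.0, 25.2 and 17.0 FPKM, against 13.9 to 19.1 in wild-type. The same 3 libraries were high, at 1.56 to 2.26 times the wild-type mean. By the first number of their titles, both libraries numbered 29 were high, the single library numbered 28 was not, and of those numbered 30 one was high and the other was not. The coefficient of variation in knockout rats at day 8 was 52.5% for Gad2 and 34.8% for Gad1, and in the other 9 groups it was 5.16% to 13.8% for both genes. Relative read depth was 1.251, 0.83 and 1.204 in the 3 high libraries and 0.789 and 0.743 in the other 2.

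Vip, Pvalb and Sst did not follow Gad1 and Gad2 in these libraries. Vip was at 7.26, 5.11, 6.43, 4.75 and 7.04 FPKM in knockout libraries 28-1, 29-4, 29-5, 30-1 and 30-5 and between 6.39 and 8.81 in wild-type ones. It was lowest in 29-4 and 30-1, which are among those with high Gad2. Pvalb was at 0.738, 0.0824, 0, 0.186 and 0.332 FPKM, with its 3 lowest values in the libraries of highest Gad2, but on very few reads. Sst was at 59.2, 61.8, 53.9, 50.1 and 23.9 FPKM. Library 30-5, whose correlation with its own group was also low (0.927), was alone below the wild-type range of 35.4 to 58.8. Markers of other cell types could not be read without symbols, and their part in the Gad1 and Gad2 values was not tested.

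**Figure D3:**
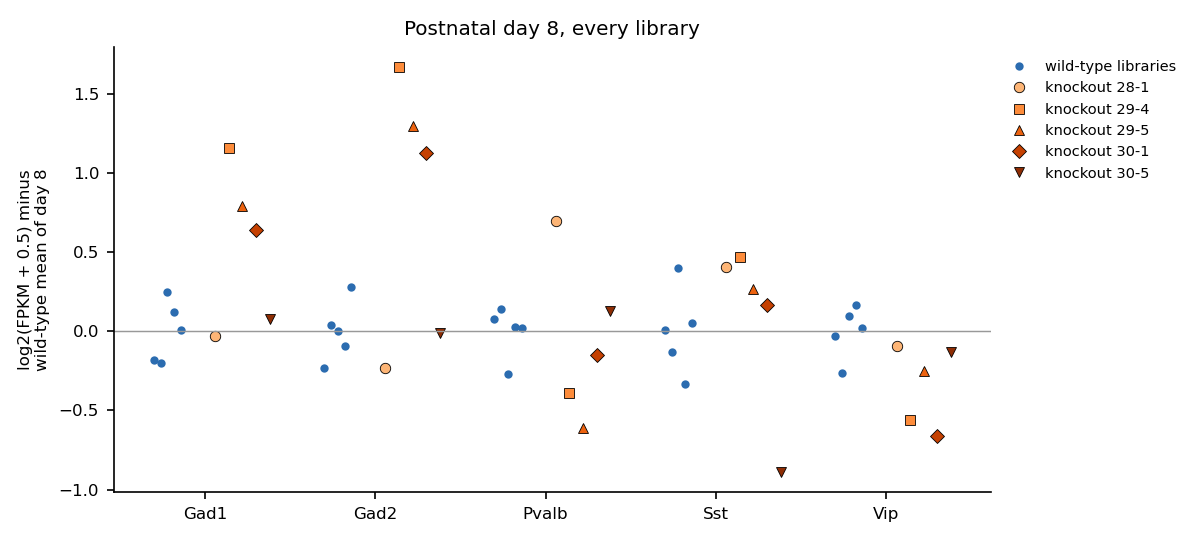
Each gene in every library of day 8, as log2(FPKM + 0.5) minus the wild-type mean of that age (y axis), genes along the x axis, with the 5 knockout libraries marked by number. Knockout libraries 29-4, 29-5 and 30-1 lie 1.13 to 1.67 above the wild-type mean for Gad2 and 0.64 to 1.16 above it for Gad1.

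The mean difference at day 8, knockout minus wild-type on the log2(FPKM + 0.5) scale, was 0.77 for Gad2 (95% interval 0.39 to 1.15, limma adjusted p = 0.0644) and 0.53 for Gad1 (0.26 to 0.80, limma adjusted p = 0.0867). For Vip it was -0.34 (-0.54 to -0.14, limma adjusted p = 0.177). Of the 5 genes 3 thus had an unadjusted p under 0.05, as did 1377 of the 14779 genes tested. Called were 0 of the 5, when 0.244% of all genes were called. The fit gives all groups 1 spread per gene, and for Gad1 and Gad2 the knockout group of day 8 was the widest of the 10. With the 10 libraries alone, a two-sided exact permutation test gave p = 0.143 for Gad2, 0.0794 for Gad1 and 0.0476 for Vip (5 against 5, smallest possible p 0.00794, no adjustment over the 25 such tests run, of which 3 gave a p under 0.05). Limma fitted to day 8 alone gave an adjusted p of 0.771 for each of these 3 genes. The verdict turned on single libraries. With 1 library left out, the limma adjusted p went up to 0.379 for Gad2, 0.417 for Gad1 and 0.463 for Vip. Over all 61 settings it went up to 0.995 for Gad2 and Gad1. Without knockout library 28-1 Gad2, Gad1 and Vip all passed (limma adjusted p = 0.000282, 0.00284 and 0.0369), and without 30-5 Gad2 and Gad1 passed (0.00298 and 0.0115). Leaving out the 3 libraries of lowest correlation, an alternative chosen after seeing the data, also gave calls for Gad2, Gad1 and Vip (0.00418, 0.0169 and 0.0434). Limma array weights, which give deviating libraries less weight, called the same 3 genes (2.08e-05, 0.000159 and 0.00937). Calls over all genes moved with the same settings, from 36 of 14779 to 161 without 28-1, 71 without 30-5, 72 without the 3 libraries and 222 with array weights. They fell to 1 without 29-4, 15 without 29-5 and 8 without 30-1.

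From day 14 on the log2 differences of Gad1 and Gad2 were small, with intervals that included 0. At days 14, 21, 35 and 70 that of Gad1 was -0.03, -0.04, 0.01 and 0.07, with 95% intervals between -0.31 and 0.34. That of Gad2 was -0.10, -0.05, 0.03 and -0.01, with intervals between -0.48 and 0.41. For Pvalb the 5 differences ran from -0.31 (day 14, interval -0.77 to 0.14) to 0.03 (day 70, -0.42 to 0.49). For Sst they ran from -0.08 (day 35, -0.47 to 0.31) to 0.29 (day 21, -0.10 to 0.68). At day 21 knockout Sst libraries stood between 71.0 and 86.9 FPKM and wild-type ones between 45.9 and 77.6 (exact permutation p = 0.0397, two-sided, unadjusted, while the limma adjusted p was 0.999). Called genes were 0 of 5 by limma at each of these ages, against 0.00677% of all genes at day 14 and 0% at days 21, 35 and 70. An unadjusted p under 0.05 was seen for 1 of the 5, Vip at day 35, and for 0 at the other 3 ages. Among the 14779 genes tested it was seen for 352, 436, 377 and 354 at days 14, 21, 35 and 70. At no age did the libraries of the 2 genotypes lie apart for any of the 5 genes. Over all genes such separation was seen for 0.853%, 0.433%, 0.636%, 0.291% and 0.507% at days 8, 14, 21, 35 and 70.

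**Figure D4:**
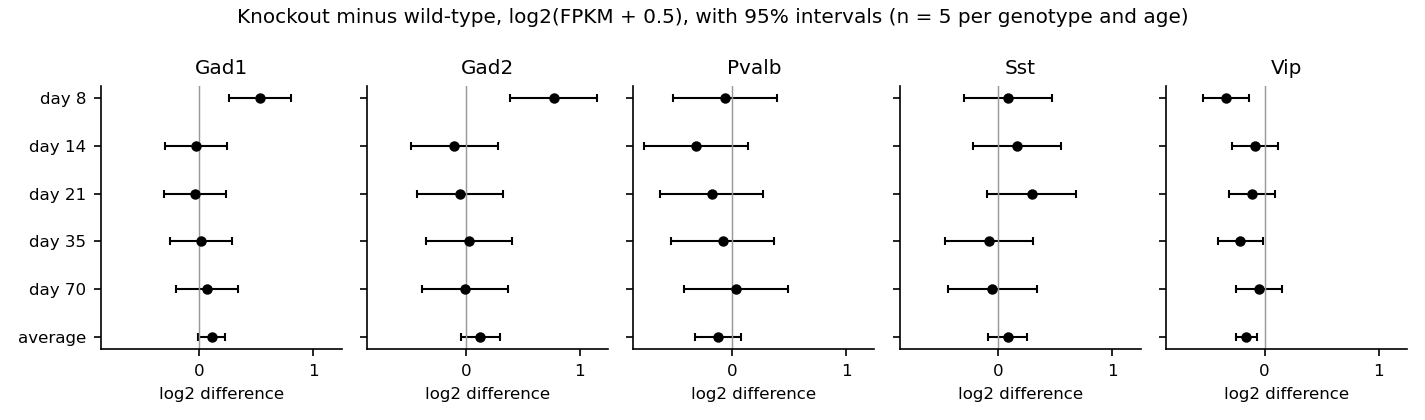
Log2 difference of FPKM + 0.5, knockout minus wild-type (x axis), at each age and averaged over ages (y axis), with 95% intervals from limma, 5 libraries per genotype and age. The intervals of Gad1 and Gad2 at day 8 lie above 0, at 0.26 to 0.80 and 0.39 to 1.15, although neither passed after adjustment over all genes.

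For Vip the knockout mean was the lower of the pair at 5 of 5 ages, and for the other genes at 2 or 3. In order of age its knockout means were 6.12 ± 1.14, 13.3 ± 1.11, 17.0 ± 1.86, 16.2 ± 1.44 and 17.2 ± 0.641 FPKM (SD, n = 5). The wild-type means were 7.81 ± 0.92, 14.2 ± 2.36, 18.3 ± 1.71, 18.8 ± 1.75 and 17.9 ± 0.562 FPKM. All 5 pairs of ranges overlapped. At day 35 the log2 difference was -0.21 (exact permutation p = 0.0397, two-sided, unadjusted, and limma adjusted p = 0.999). Averaged over ages the log2 difference was -0.16 ± 0.04 (SE; 95% interval -0.25 to -0.07). It did not pass over all genes (limma adjusted p = 0.453, from 0.0645 to 0.999 over 60 settings). The average differences of the others were 0.11 for Gad1, 0.13 for Gad2, -0.12 for Pvalb and 0.08 for Sst, with intervals that included 0. Called genes were 0 of 5 by limma, where 0.0338% of all genes were called. An unadjusted p under 0.05 was seen for 1 of the 5 (Vip) and for 867 of the 14779 genes tested. The 2 genotypes were deposited in separate tables, and any factor tied to a table cannot be told apart from genotype.

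The change with age was compared between genotypes directly. From day 8 to 14 Gad2 rose in wild-type rats by 1.32 log2 units, and the knockout value was 0.45, which did not pass (limma adjusted p = 0.0602). The difference of these changes was -0.87 (95% interval -1.41 to -0.34), and that of Gad1 was -0.56 (-0.94 to -0.17). Neither passed (limma adjusted p = 0.732 for both), and no gene at all did for this interval (0%). The other 3 consecutive intervals also gave 0 of 5 genes and 0% of all genes, and days 8 to 70 gave 0 of 5 against 0.0135% of all. Unadjusted p-values under 0.05 were seen for 2 of the 5 genes for days 8 to 14 and for 3 (Gad1, Gad2 and Vip) for days 8 to 70. Among the 14779 genes tested they were seen for 924 and 781. Dependence of the genotype difference on age, by limma's moderated F test, was called for 0 of 5 genes and 0.00677% of all, with an unadjusted p of 0.0111 for Gad2 and 0.0236 for Gad1. Without knockout library 28-1 Gad2 passed both for days 8 to 14 (limma adjusted p = 0.023) and for dependence on age (0.0486), as it did with array weights (0.00573 and 0.00508). Over all genes these counts were 16 and 13 without 28-1 and 25 and 33 with array weights. The knockout value of Gad2 from day 8 to 14 became a called rise without library 29-4, 29-5 or 30-1 (limma adjusted p = 0.00216, 0.0166 and 0.0314).

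Ratios of genes within a library do not depend on its scaling factor and are given as a description. The ratio of Gad2 to Gad1 in wild-type rats was, in order of age, 0.726 ± 0.128, 1.24 ± 0.176, 0.992 ± 0.13, 0.879 ± 0.144 and 0.951 ± 0.144 (SD, n = 5). It was thus highest at day 14, when Gad2 was at 98.3% of its day 70 mean and Gad1 at 75.5%. At day 8 the 5 wild-type libraries held 0.691, 0.853, 0.601, 0.614 and 0.868. Knockout libraries 29-4, 29-5 and 30-1 held 1.03, 1.04 and 1.02, above all of these, and 28-1 and 30-5 held 0.619 and 0.672. The knockout mean at day 14 was 1.18 ± 0.172.

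Set against the sum of Gad1 and Gad2, the 3 class markers took different courses in wild-type rats. The Pvalb ratio went from 0.00987 ± 0.00356 at day 8 to 0.033 ± 0.0162, 0.237 ± 0.0324, 0.422 ± 0.0349 and 0.353 ± 0.0738 at the later ages. That of Sst went the other way, with 1.64 ± 0.278, 1.32 ± 0.381 and 0.974 ± 0.245 for the first 3 ages. That of Vip was 0.283 ± 0.0312 in the youngest and 0.289 ± 0.00578 in the oldest rats, so Vip kept pace with the synthesis genes at all 5 ages (group means 0.265 to 0.289). In knockout libraries 29-4, 29-5 and 30-1 of day 8 the Vip ratio was 0.0691, 0.113 and 0.0933, below the wild-type range of 0.249 to 0.319, and in 28-1 and 30-5 it was 0.287 and 0.248. Pvalb relative to Sst rose in wild-type means from 0.00623 at day 8 to 0.465 at day 35.

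**Figure D5:**
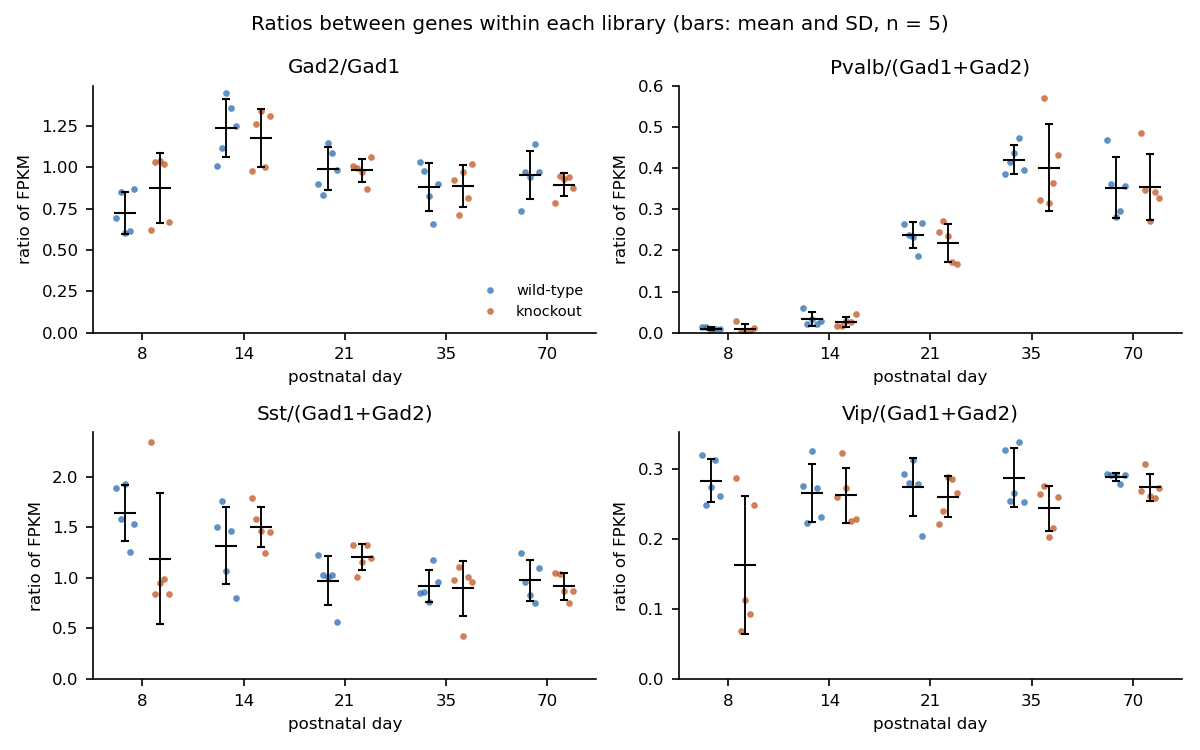
Ratios of FPKM within each library (y axis) by postnatal day (x axis), 1 point per library, wild-type in blue and knockout in orange, with mean and SD of 5. The knockout libraries of day 8 spread from 0.0691 to 0.287 in the Vip ratio, where wild-type libraries lie between 0.249 and 0.319.

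The order of levels changed with age. Pvalb overtook Vip between days 21 and 35, and at day 14 alone the wild-type mean of Gad2 (29.5 FPKM) stood above that of Gad1 (24.1). In wild-type means at day 8 the order was Sst (45.2 FPKM), Gad1 (16.1), Gad2 (11.6), Vip (7.81) and Pvalb (0.266), and only Gad1 and Gad2 had ranges that touched (13.9 to 19.1 and 9.72 to 14.0). At day 35 it was Sst (60.5), Gad1 (35.3), Gad2 (30.7), Pvalb (27.9) and Vip (18.8). There the ranges of Gad1, Gad2 and Pvalb overlapped, while Sst lay above them and Vip below. At day 70 Pvalb (17.9 to 29.3) overlapped with both Gad2 (26.5 to 34.3) and Vip (17.2 to 18.5).

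Likeness of course was measured as Pearson's r of log2(FPKM + 0.5) over the 50 libraries, which share ages and so are not independent points. Gad1 and Gad2 had r = 0.83, Pvalb and Vip 0.86, Gad1 and Pvalb 0.80, and Sst had 0.21 to 0.40 with the other 4. Among 14778 other genes Gad1 ranked 5 by likeness to Gad2, and Gad2 ranked 45 by likeness to Gad1. Pvalb and Vip, with the higher r, ranked lower, Vip 866 by likeness to Pvalb and Pvalb 566 by likeness to Vip. Gad1 ranked 1380 by likeness to Pvalb, and Pvalb 159 by likeness to Gad1. After each group's mean was removed, r of Gad1 and Gad2 was 0.69 over 50 libraries and 0.19 over the 45 without the knockout group of day 8. In the 45 libraries Gad1 went with Pvalb at 0.42 and Gad2 with Sst at -0.59 by the same measure, the highest and lowest of all pairs. Over the 50 libraries these values were -0.01 and -0.0. The other pairs ran from -0.02 to 0.19 in the 45 libraries. The genes most like Pvalb and Vip outside the set were ENSRNOG00000013484 (r = 0.981) and ENSRNOG00000023389 (r = 0.967), which have no symbol in the sources used here. The first went from 0.452 FPKM in wild-type rats at day 8 to 2.6, 14.2, 28.0 and 27.5 at the later ages, and the second from 10.3 to 24.5, 35.5, 39.2 and 36.4. The highest r outside the set was 0.894 for Gad1, 0.874 for Gad2 and 0.865 for Sst.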

How the data were processed

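The authors deposited 1 FPKM table per genotype. Per the labels' protocols, RNA was depleted of ribosomal RNA and read as 50 bp single-end reads to a depth of about 29 M per sample and aligned with gsnap, whereas BWA 0.6.1 appears beside bedtools, Cufflinks and rn4 in the submitters' processing notes. Which of these 2 aligners lies behind the tables is unknown. The annotation and strand are not given in the sources used here. Columns were matched to samples by title (0 unmatched, 0 identical pairs). Depth is known only as a ratio between libraries, from the steps of low values in 4202 rows (0.397 to 1.419 of the median). Libraries were scaled by the median ratio to the geometric mean, and 14779 genes with a scaled mean of at least 0.5 FPKM, all 5 members among them, were fitted across all genes as log2(FPKM + 0.5) with limma 3.58.1 in R 4.3.3 (10 groups, trend, robust). This scale understates changes of low values such as Pvalb at day 8. Calls are at a Benjamini-Hochberg adjusted p under 0.05 over all genes. The test was tested on simulated data. Exact permutation tests used scipy 1.17.1. Named were the 5 members and, for likeness, the gene of highest r. The members and lists were chosen with earlier results of these data known. A list of 71 symbols (other GABA genes, cell type markers, the transporter gene) matched 0 identifiers and was not analysed here.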

Additional observations from a re-analysis of the deposited data

Results flagged for a closer look

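Each gene and ratio was checked in each group for a single library far from the other 4 (gap to the nearest library over 0.71 of the group's range). Of 110 such groups 9 were flagged, and chance flags about 1 in 20. Pvalb in knockout rats at day 70 was 31.2 FPKM in library 1-2 and 19.0 to 22.2 in the others. Vip in knockout rats at day 14 was 15.2 FPKM in library 22-3 and 12.6 to 13.0 in the others. The ratio of Pvalb to Sst in wild-type rats at day 21 was 0.469 in library 16-2, the library of lowest depth, and 0.181 to 0.231 in the others. The ratio of Vip to Sst was 0.249 in wild-type library 27-2 of day 8 (others 0.142 to 0.171), 0.295 in knockout library 30-5 of day 8 (others 0.0827 to 0.123) and 0.482 in knockout library 7-3 of day 35 (others 0.213 to 0.271). The ratio of Sst to the sum of Gad1 and Gad2 was 2.34 in knockout library 28-1 of day 8 (others 0.836 to 0.984) and 0.422 in knockout library 7-3 of day 35 (others 0.962 to 1.11). The ratio of Vip to that sum was 0.278 in wild-type library 3-3 of day 70, against 0.291 to 0.292 in the others, a small step in a very narrow group.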

How the results depend on the processing

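Each of 110 values (5 genes in 22 comparisons) was recomputed under up to 61 settings. Of 6700 values, 6642 kept their side of the threshold, 31 lost a call, 27 gained one and 0 called values changed sign. Most settings left out 1 library, often of a group outside the comparison, so these totals overstate how firm a call was. Calls between genotypes at single ages, 0 of 25, became 3 with array weights and 3 without the libraries of lowest correlation, and 0 to 3 when 1 library was left out. Over all genes day 8 calls went from 36 to 222 with array weights and 72 without those libraries. Calls for dependence on age, 0 of 5, became 1 with array weights and 0 to 1 with 1 library left out, and those for differences of age changes, 0 of 25, became 2 and 0 to 1. Over all genes array weights moved calls for dependence on age from 1 to 33. Those for differences of age changes went from 0 to 25 for days 8 to 14 and from 2 to 48 for days 8 to 70. Rises between consecutive ages in wild-type rats, 9 of 20, fell to 5 with the values as deposited. Over all genes such rises fell too, from 2570, 1520, 272 and 14 in the 4 intervals to 2100, 835, 125 and 11, and from day 14 to 21 rises were 835 of 2807 calls in place of 1520 of 3015. The share of rises also moved for wild-type days 21 to 35 (125 of 355 in place of 272 of 571) and 8 to 70 (3009 of 8104 in place of 4107 of 8152), knockout days 21 to 35 (240 of 386 in place of 286 of 664) and the genotype calls of day 8 (2 of 19 higher in place of 15 of 36). Rises from day 8 to 70 in knockout rats, 4 of 5, fell to 2 when only those groups were fitted. Over all genes knockout rises from day 8 to 70 went from 4294 to 3808 in that setting, and wild-type ones from 4107 to 4209. The cause of these changes was not tested. Without scaling the median change of all genes from day 8 to 70 was -0.147 in wild-type and -0.106 in knockout rats, in place of -0.01 and -0.006. No paired analysis was possible because the groups share no library numbers. Pvalb at day 8 rests on few reads, and its log2 difference between genotypes had a 95% interval of -0.52 to 0.39.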
